A study of Mus musculus with 2 samples.

Results

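The microRNA (miRNA) genes Mir143, Mir145a and Mir145b were described in mouse stomach at embryonic day 16.5, by sequencing of its small RNA. They were chosen by name, as the genes of the miR-143 and miR-145 families, and are 3 of the 1973 genes in the count tables. The samples form 1 group of 2 biological replicates under 1 donor label. For each, stomachs of healthy B6NCrl embryos of both sexes were pooled. The labels give 41 embryos for replicate 2 and no number for replicate 1. No other tissue, age, genotype or treatment was present, so the genes were set against the other miRNA genes and between the 2 libraries.

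miR-143 and miR-145 are best known from smooth muscle. Mir143 and Mir145a lie side by side and are described as products of one primary transcript whose activity depends on serum response factor and its coactivator myocardin. In mouse vascular smooth muscle, miR-145 is known to repress Klf4 and miR-143 to repress Elk1, factors linked to the proliferating state, and the pair is associated with the contractile state. In the gut wall they are known from the muscle layers and other mesenchyme rather than from the epithelium. The count tables hold miRNA genes only, so the smooth muscle source could not be checked against messenger RNA markers. In bulk tissue, fewer cells of a type and less RNA per cell cannot be told apart.

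Mir143 (ENSMUSG00000065445) lies on chromosome 18 from 61649196 to 61649258 and Mir145a (ENSMUSG00000065592) from 61647825 to 61647894, both on the minus strand of GRCm38, the assembly that mm10 names. They are separated by 1301 bases. GENCODE M21 places neither inside a longer gene and ends the long non-coding RNA gene Carmn, the smooth muscle transcript at this locus, 366 bases from Mir143. RefSeq draws Carmn from 61645878 to 61665538, and both hairpins lie within it. Mir145b (ENSMUSG00000098366) lies on the same chromosome and strand from 69022199 to 69022273, which is 7.37 Mb from Mir143. It is therefore a separate locus. It lay inside no other GENCODE gene on its strand, and the nearest, the long non-coding RNA gene 4930546C10Rik, was 70671 bases away.

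In the sense direction, 7734578 reads were assigned to miRNA genes in replicate 1 and 7983714 in replicate 2. Levels are counts-per-million (CPM) of these reads. Each read is a fragment of 1 small RNA of fewer than 30 bases by the size label, so CPM was not divided by gene length unless stated. A gene with no read can hold up to 3 reads at this depth, which equals 0.388 CPM at the depth of replicate 1 and 0.376 at that of replicate 2. Intervals and this limit cover counting error only, and the means and SDs are over 2 libraries. Reads that matched several positions made up 25.1% and 25.2% of all reads, have a total of their own, and are taken to be in no gene count.

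Mir143 led the profile of counted reads by a wide margin. Reads that matched several positions are outside this ranking, so genes with identical copies may be placed too low in it. Such reads made up 25.1% and 25.2% of all reads in replicates 1 and 2, against 9.67% and 9.75% for Mir143. Its reads numbered 1521913 in replicate 1 and 1555688 in replicate 2, which is 196767 and 194858 CPM. Both libraries thus placed it at nearly the same level. It ranked first in each. The mean was 195813 ± 1350 CPM (SD, n = 2), or 19.6% of the sense-assigned reads, with exact Clopper-Pearson 95% intervals of 19.65% to 19.70% in replicate 1 and 19.46% to 19.51% in replicate 2. Mir143 was 3.12-fold above the second gene, Mir99a, in replicate 1 and 3.01-fold above it in replicate 2. Mir99a averaged 63941 ± 1248 CPM, Mirlet7g 52768 ± 11516 CPM and Mirlet7i 48456 ± 2196 CPM. The gap between Mir143 and each of these 3 was at least 12.4 times the larger SD of the pair. The next 5 genes in rank were needed to equal the reads of Mir143 in replicate 1 and the next 4 in replicate 2. From the low end, the 646 lowest of the 683 genes with a read in replicate 1 together held no more reads than Mir143 did, and 653 of 684 in replicate 2. Per base of the annotated hairpin Mir143 also ranked first, at 3108 CPM per base against 984 for Mir99a.

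Mir145a was far lower and less even between the libraries. Its reads numbered 41123 in replicate 1 and 20279 in replicate 2, which is 5317 and 2540 CPM. Replicate 1 was the higher library. The mean was 3928 ± 1963 CPM (SD, n = 2), so the SD came to 49.98% of the mean, against 0.69% for Mir143. By mean level Mir145a ranked 43, with rank 38 in replicate 1 and 57 in replicate 2, and per base of hairpin it ranked 40. Its place among its neighbours was not settled. The 3 genes next above by mean CPM were Mirlet7b, Mir369 and Mir125a, and the 3 next below were Mir181c, Mir130b and Mir382. Each lay within 1 SD of Mir145a. Except for Mir125a, which was higher in both libraries, each of these was lower than Mir145a in replicate 1 and higher in replicate 2. In all, 19 genes changed their order against Mir145a between the libraries.

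Mir145b was at the limit of detection, with 1 read in replicate 1 and 0 reads in replicate 2. Both values lie under the limit that a count of 0 allows, so no level or fold is given for it.

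**Figure D1:**
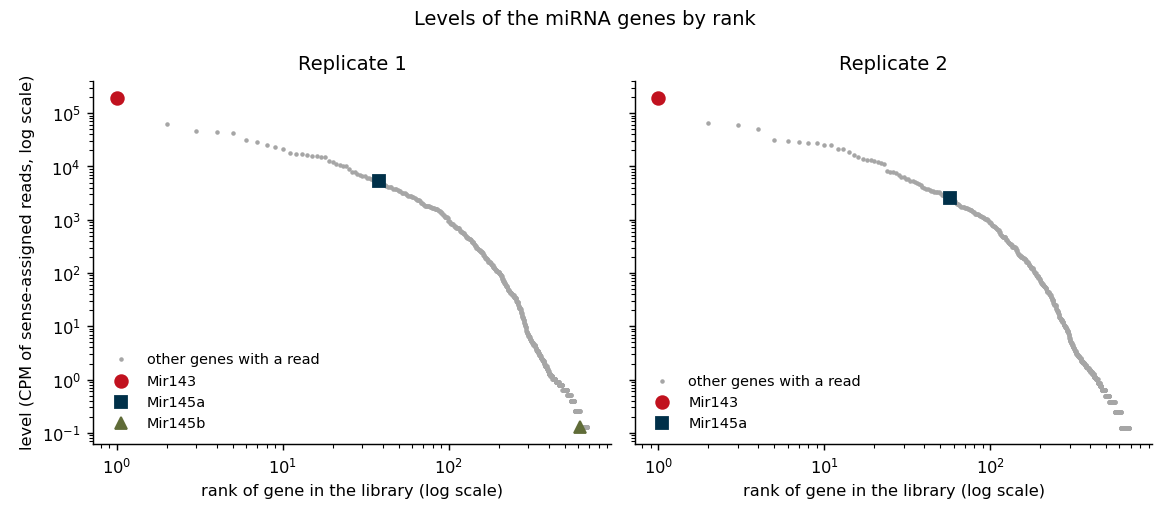
The level of each gene with a read, in CPM on a log scale, is plotted against its rank in replicate 1 (left) and replicate 2 (right), with the members as coloured symbols and the other genes as grey points. Mir143 stands apart at rank 1 in both libraries, Mir145a sits inside the main curve at ranks 38 and 57, and Mir145b appears in replicate 1 only, where it had 1 read.

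The 3 genes together held 1563037 reads in replicate 1 and 1575967 in replicate 2. This was 20.2% of the sense-assigned reads of replicate 1 and 19.7% of those of replicate 2, with Clopper-Pearson 95% intervals of 20.18% to 20.24% and 19.71% to 19.77%. Mir143 supplied 97.4% of their reads in replicate 1 and 98.7% in replicate 2. As a share of all sequenced reads, placed or not, the 3 genes held 9.93% and 9.88%. Because Mir143 is so abundant, it lowers the CPM of every other gene. With its reads taken out of the denominator each of the others was 1.24-fold higher in both libraries, and Mir145a stood at 6619 CPM in replicate 1 and 3155 CPM in replicate 2. On chromosome 18 the 3 members held 99.0% and 99.3% of the sense reads at 50 genes. Among the other 47, Mir122, the hepatocyte miRNA gene, and Mir187 were the 2 that reached a mean of 10 CPM, at 1516 ± 432 and 194 ± 10.3 CPM (SD, n = 2).

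The hairpins were examined for sequence features that bear on counting. Reads opposite to the annotated strand were nearly absent at the members, with 2 opposite to Mir143 in replicate 1 and 0 elsewhere. The hairpin of Mir143 shared no run longer than 11 bases with any other hairpin in the tables. Mir145a and Mir145b shared a run of 17 bases, from base 7 to 23 of the Mir145a hairpin and from base 17 to 33 of the Mir145b hairpin, counted from the 5′ end. A read that falls within that run matches both genes. None of the 3 shared a 20-base stretch with another hairpin, while 65 of the 287 other hairpins averaging at least 10 CPM, or 22.6%, did so. The predicted minimum free energy of the Mir143 hairpin was -36.9 kcal/mol over 63 bases, or -0.586 kcal/mol per base. Only 15 of the 287 other hairpins had a lower value per base, and their median was -0.435. Mir145a stood near that median at -0.433 kcal/mol per base over 70 bases. Mir145b was at -0.335 over 75 bases, and 268 of the 287 had a lower value. GC content was 55.6% in Mir143, 48.6% in Mir145a and 46.7% in Mir145b, beside a median of 50% in the 287. The ends of the hairpins are those of the annotation, which differ in how much flanking sequence they take in.

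The ratio of Mir143 to Mir145a was taken next, since it does not depend on how the libraries are scaled. It was 37.0 in replicate 1 (exact binomial 95% interval 36.6 to 37.4) and 76.7 in replicate 2 (75.7 to 77.8). The intervals do not overlap. Mir145a thus made up 2.63% of the reads of the locus in replicate 1 and 1.29% in replicate 2. Counts belong to whole hairpins, so the arms that supply these reads were not told apart.

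Unequal reads from neighbouring hairpins were common in these libraries. Pairs of next-neighbour miRNA genes on 1 strand within 10 kb, with the higher gene averaging at least 10 CPM, numbered 129. Mir143 and Mir145a, at a geometric mean ratio of 53.3, were in place 51 from the most uneven, and the median of the other 128 pairs was 15.9-fold. The pairs at the top had a partner with hardly any read. These were Mir434 with Mir432, Mir467d with Gm22678, Mir137 with Gm24155, Mir411 with Mir1197 and Mir467c with Gm26073. Their lower genes had no read at all, apart from Mir1197 with 1 read in replicate 1 and 17 in replicate 2. Of the 50 pairs above Mir143 and Mir145a, 26 have a lower gene with a 20-base stretch in common with a further hairpin. Gm22678 and Gm26073 are among these genes. Reads that matched several positions may be missing from their counts. Among the 84 pairs with both genes at 10 CPM or more, the pair was in place 13, and the median of the others was 6.03-fold. In 7 of the 12 pairs above it the lower gene has a 20-base stretch in common with a further hairpin, as with Mirlet7c-1 beside Mir99a and Mir30c-1 beside Mir30e. Among the 18 pairs with both genes at 1000 CPM or more, Mir143 and Mir145a were the most uneven. This threshold bounds each ratio by the level of the higher gene. Mir143 averaged 195813 CPM, and the highest gene of the other pairs, Mir429, averaged 23612 CPM. First place here therefore follows from the level of Mir143 and adds nothing to it. The next was Mir429 over Mir200a, a pair of epithelial miR-200 genes, at 14.6-fold, and the median of the other 17 was 2.86-fold. The thresholds on both genes were chosen after the values were seen. Neighbouring pairs overlap within clusters and are not independent.

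The change of the pair ratio between the libraries stood among the larger ones. On the log2 scale the ratio of Mir143 to Mir145a was 1.05 lower in replicate 1, at 5.21 against 6.26 in replicate 2. Of the 83 other pairs with both genes at 10 CPM or more, 9 moved further, or 10.8%, and the median move was 0.23. Of the 17 other pairs with both genes at 1000 CPM or more, only Mir99b over Mir125a moved further, at 1.96-fold in replicate 1 and 4.52-fold in replicate 2.

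**Figure D2:**
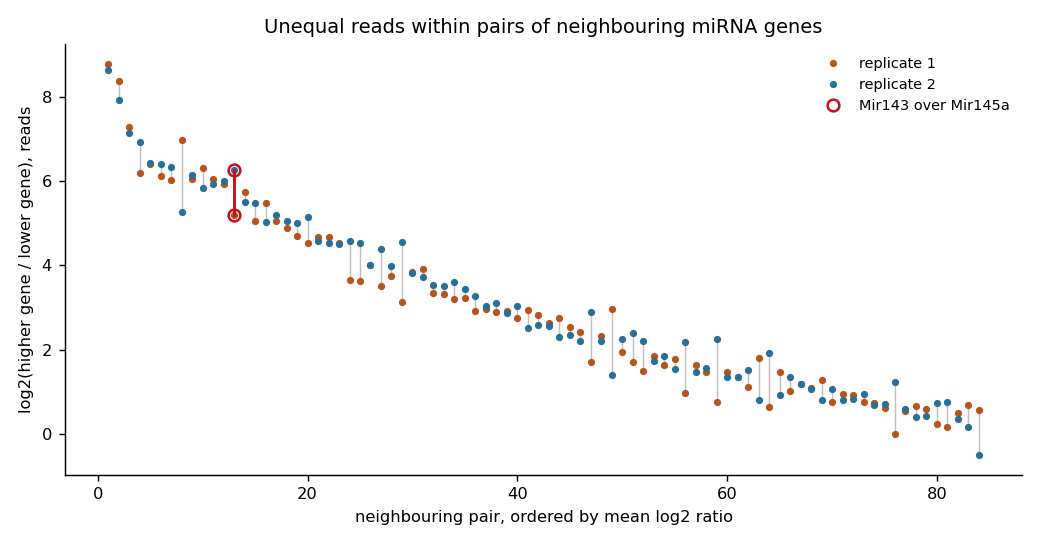
The log2 ratio of the higher to the lower gene in reads is plotted for the 84 neighbouring pairs with both genes at 10 CPM or more, ordered by their mean, with replicate 1 in orange, replicate 2 in blue and a line joining them. The pair of Mir143 and Mir145a, ringed in red, lies in place 13, at 5.21 in replicate 1 and 6.26 in replicate 2, a wider gap than in most pairs.

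Each gene was then compared between the libraries, replicate 1 over replicate 2, after scaling by trimmed mean of M values (TMM), by an exact binomial test of the reads, two-sided, with Benjamini-Hochberg adjustment over the 289 genes that averaged at least 10 CPM. A gene was called at an adjusted p under 0.05 and at least 2-fold. Mir145a was 1.84-fold higher in replicate 1, a log2 ratio of 0.88 (exact 95% interval 0.86 to 0.91). Mir143 was 0.890-fold in replicate 1, a log2 ratio of -0.17 (-0.17 to -0.16). The adjusted p of both genes by the exact test was below 1e-300, but neither passed the 2-fold threshold. Thus 0 of the 2 members tested were called, beside 23 of all 289 genes, or 7.96%. Without a minimum fold both passed, as did 76.1% of the 289. The test compares these libraries and carries no spread among animals.

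Scaling by total sense-assigned reads shifted the median over all tested genes by 0.18 on the log2 scale and altered the call of Mir145a and the sign of Mir143. Mir145a then had a log2 ratio of 1.07 and passed the 2-fold threshold, as did 29 of the 289 genes (10%). Mir143 had a log2 ratio of 0.01, with its direction turned round. Measured from the median of all tested genes, Mir145a stood 0.86 above and Mir143 at -0.19. A change of scaling moves every gene by the same amount, so these distances are the same under each scaling by construction. The direction for Mir143 is thus not settled, while Mir145a was higher in replicate 1 under every scaling tried. Beside the 288 other genes tested, 29 lay further from a ratio of 1 than Mir145a, or 10.1%, and 179 further than Mir143, or 62.2%. Of the 29, 28 had a lower level than Mir145a. Of the 50 genes nearest to Mir145a in rank, only Mir125a had a larger log2 ratio, at 0.89, and the median distance from 0 of the 50 was 0.19.

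**Figure D3:**
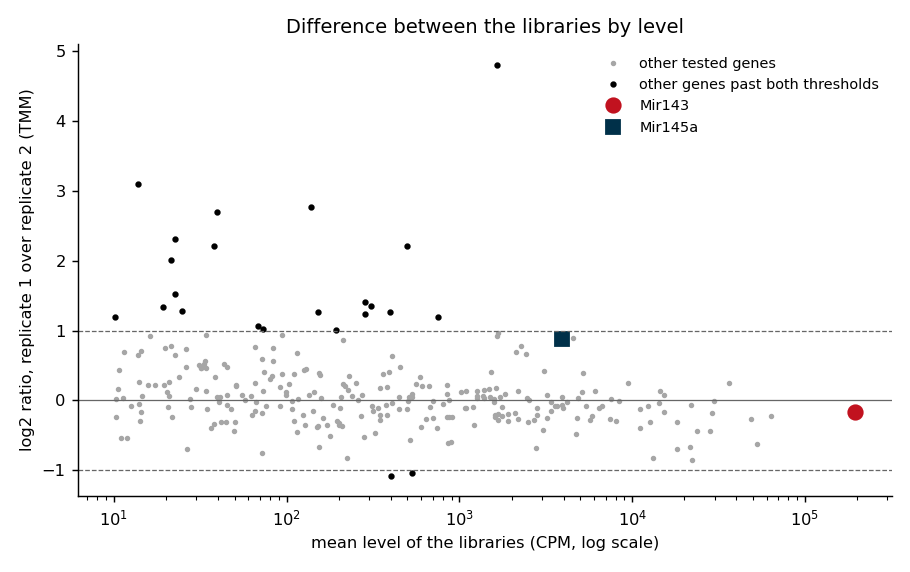
The log2 ratio of replicate 1 over replicate 2 after TMM scaling is plotted against mean level in CPM on a log scale for the 289 genes tested, with the members as coloured symbols, genes past both thresholds in black, and dashed lines at 2-fold. Mir143 lies close to 0 at the highest level, and Mir145a lies just inside the upper line at 0.88, above nearly all genes of its level.

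Genes with the nearest ratio between the libraries were taken among the 192 other genes that averaged at least 100 CPM. With 2 libraries this is a likeness in a single ratio and no more. Nearest to Mir143 were Mir21a at a log2 ratio of -0.17, Mir330 at -0.16, the endothelial gene Mir126a at -0.18, Mir361 at -0.18 and Mir323 at -0.15. Mir21a stood at 15405 CPM in replicate 1 and 15244 CPM in replicate 2, and Mir323 at 318 and 311 CPM. Nearest to Mir145a were Mir125a at 0.89, Mir328 at 0.87, Mir483 in an intron of Igf2 at 0.92, Mir199b at 0.96 and Mir484 at 0.78. Mir199b, a gene of mesenchyme, stood at 2300 CPM in replicate 1 and 1040 CPM in replicate 2. Its hairpin has a 20-base stretch in common with a further hairpin, and its level is uncertain.

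Other miRNA genes known from vascular smooth muscle were followed as a list of 14, of which 12 had a row, with Mir146a under its GENCODE symbol Mir146. They include Mir21a, Mir221 and Mir222, linked to proliferation or survival of these cells. The mature sequences below are shown because identical copies decide which of these genes can hold counted reads. They are from RefSeq (GRCm38.p6), 5′ to 3′, with the seed, bases 2 to 8, in capitals. The RefSeq table used here held no entry for Mir143, Mir145a or Mir145b, and their sequences are not shown.
miR-21a-5p of Mir21a: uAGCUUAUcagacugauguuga
miR-221-3p of Mir221: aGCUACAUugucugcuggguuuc
miR-222-3p of Mir222: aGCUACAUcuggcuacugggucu
miR-26a-5p of Mir26a-1: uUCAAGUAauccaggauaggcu
miR-26a-5p of Mir26a-2: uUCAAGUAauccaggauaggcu
miR-221 and miR-222 have the same seed and differ after it, so their reads can be told apart. Mir26a-1 on chromosome 9 and Mir26a-2 on chromosome 10 give the same mature sequence, so a full-length read matches both.

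Mir143 far exceeded the sum of this list, while Mir145a, at 5317 CPM in replicate 1 and 2540 CPM in replicate 2, lay below it. The sum of the 12 genes was 16957 CPM in replicate 1 and 16867 in replicate 2, and Mir143 alone was 11.6-fold above the sum in each. Mir21a supplied most of it, at 15325 ± 113 CPM (SD, n = 2). Mir31 followed at 704 ± 26.4 CPM, Mir24-2 at 323 ± 44.5 CPM, Mir221 at 210 ± 18.7 CPM, Mir146 at 116 ± 11.3 CPM and Mir222 at 114 ± 14.9 CPM. The levels of Mir146 and Mir222 differed by less than the SD of either. Mir146 has a 20-base stretch in common with a further hairpin, and its level is uncertain. Mir24-2 on chromosome 8 gives the same mature miR-24-3p as Mir24-1 on chromosome 13, a listed gene without a row. A full-length read matches both, so the level of Mir24-2 is uncertain as well. Mir26a-1 and Mir26a-2 held 10.3 and 45.0 CPM in reads placed in 1 position. Of the 12, 9 reached a mean of 10 CPM, and none of these was called between the libraries, beside 23 of all 289 genes, or 7.96%. At that share, 9 genes are too few for this count to set the list apart. Their median log2 ratio was -0.24, beside 0.02 over the 289 genes tested. Mir133a-1 and Mir133a-2 had 0 reads and share a 20-base stretch with another hairpin. Mir1a-1 had 4 and 3 reads in replicates 1 and 2. A value near 0 in a gene with copies does not show absence.

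Lists for other cell types were set beside Mir143 by their summed level. Mir143 was above each list in both libraries, by 58.5-fold and 966-fold for the striated muscle list in replicates 1 and 2. It was 2.35-fold above the epithelial list of 11 genes in replicate 1 and 2.09-fold in replicate 2, and 6.78-fold and 6.71-fold above Mir126a of endothelium. The epithelial genes at 100 CPM or more were Mir429, Mir203, Mir200c, Mir205, Mir200b, Mir141, Mir215, Mir200a, Mir192, Mir194-2 and Mir194-1, all 11 of the list. Mir143 was 17.8-fold and 15.7-fold above the endocrine list, led by Mir375 with Mir7b and Mir7-1, and 21.1-fold and 25.8-fold above the mesenchymal list of Mir214, Mir199b, Mir199a-2 and Mir199a-1. Against the lists for neurons, led by Mir137, for blood cells, with Mir223, Mir451a and Mir144, and for hepatocytes, with Mir122, the ratio lay between 79.8 and 173. Several listed genes have a 20-base stretch in common with other hairpins, and reads that matched both may be missing from these sums.

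The CPM sums of some lists were, like Mir145a, higher in replicate 1. Under scaling by total sense-assigned reads, as in CPM, the median tested gene was itself higher there, by 0.21 on the log2 scale. A small excess in CPM is thus shared by many genes. The striated muscle list had a sum of 3362 CPM in replicate 1 and 202 in replicate 2, with 6 of its 8 measured genes read, Mir206 supplying most of the sum, and Mir133a-1 and Mir133a-2 at 0 reads. The mesenchymal list, with all 4 genes read, summed to 9313 and 7559 CPM in the same order, a log2 ratio of 0.12 after TMM scaling. Mir199b, with its uncertain level, supplied most of that gap, while after TMM scaling Mir214, the highest gene of the list, had a log2 ratio of -0.08 and Mir199a-2 one of -0.01. The blood cell list, with all 3 measured genes read, summed to 2465 and 1744 CPM. The erythroid gene Mir451a, at 1086 CPM in replicate 1 and 418 CPM in replicate 2, supplied most of that gap. Mir144 stood at 139 and 159 CPM and Mir223 at 1240 and 1166 CPM. After TMM scaling Mir223 had a log2 ratio of -0.09. Mir122 of hepatocytes stood at 1821 and 1210 CPM, and the neuron list summed to 1401 and 1128 CPM. The epithelial list was lower in replicate 1, at 83614 CPM in replicate 1 and 93096 CPM in replicate 2, and all 11 genes were read. The largest falls were those of Mir203, at 17200 and 27343 CPM, and Mir429, at 21476 and 25747 CPM. Mir200c, Mir205, Mir200b, Mir192, Mir194-2 and Mir194-1 were higher in replicate 1 in CPM. After TMM scaling only Mir200b, Mir192 and Mir194-1 stayed higher there, at log2 ratios of 0.25, 0.16 and 0.06. Mir200c, Mir205 and Mir194-2 were then at -0.04, -0.12 and -0.01. The endocrine list was also lower in replicate 1, at 11038 CPM against 12430 CPM in replicate 2. The part of these lists in the difference of Mir145a was not tested.

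**Figure D4:**
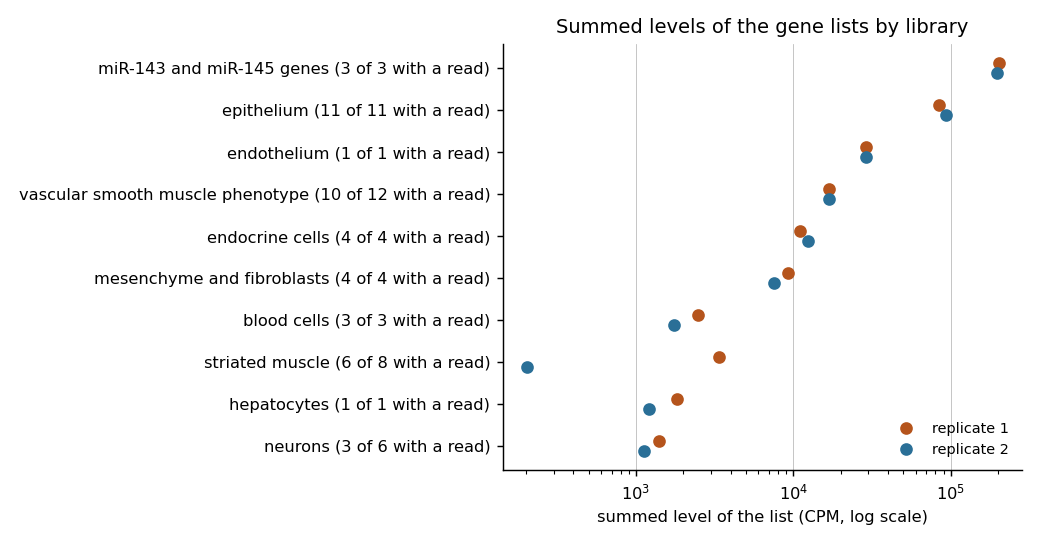
The summed level of each gene list in CPM, on a log scale, is plotted for replicate 1 in orange and replicate 2 in blue, with the number of measured genes that had a read. The miR-143 and miR-145 genes lie highest with both points together, and the striated muscle list shows the widest gap, at 3362 CPM in replicate 1 and 202 CPM in replicate 2.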

How the data were processed

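Small RNA was sequenced from 2 pools of embryonic mouse stomach. The authors deposited raw read counts per gene for each library, made on mm10 with GENCODE M4 genes, per the file headers. Aligner, counter and trimming: not given in the sources used here. The strand column with the larger total was used as sense, and summary totals that name no gene were left out; unmapped reads were 21.3% and 20.3% of all reads and reads outside genes 2.81% and 3.11%.

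Symbols, places and hairpins came from GENCODE M21 on GRCm38 (1894 of 1973 identifiers matched). TMM factors came from edgeR 4.0.16 over genes at 10 CPM or more, with DESeq2 1.42.0 size factors as an alternative. Ratios had 0.5 added to each count. Hairpins were folded with RNAfold 2.7.2. In data simulated for this comparison over 289 genes with counting error only, the test recovered 100% of 150 genes planted at 3-fold. It called 0% of 50 genes planted at 1.5-fold and 0% of 89 unchanged genes. The simulation holds no other spread between libraries, so it gives no error rate for the real data.

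The members, lists and tests were chosen with earlier results of these data known. Named genes were the members, the 3 genes next to each in rank, the 5 of nearest ratio, list genes at 100 CPM or more, and the 5 most uneven pairs; others were named after their values were seen. Alternatives changed the strand column, denominator, scaling, filters, pseudocount, fold and neighbour distance, and left out each library.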

Additional observations from a re-analysis of the deposited data

How the results depend on the processing

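No paired analysis was possible because the series has 1 group. The share of the 3 genes, 19.97% of sense-assigned reads, was 19.4% with the count that ignores strand and 9.90% of all reads, and ran from 19.7% to 20.2% with either library left out. Mir143 stood at 189768 CPM when strand was ignored, which enlarges the denominator, and at rank 1 in every setting tried. With 1 library left out, the rank of Mir145a ran from 38 to 57 and that of Mir145b, which rests on 1 read, from 614 to 685. The share of other neighbouring pairs more uneven than Mir143 and Mir145a was 39.1%, but 14.5% with both genes at 10 CPM or more and 26.7% without shared 20-base stretches, both settings added after seeing the data. The log2 ratio of Mir143 between the libraries, -0.17, was reversed to 0.014 with total reads and 0.017 with total reads without Mir143. TMM over every gene with a read, added after seeing the data, gave -0.13 for Mir143 and 0.92 for Mir145a and altered neither call. With total reads, and without Mir143 in them, Mir145a passed the 2-fold threshold at 1.07 in each. With no minimum fold Mir143 (-0.17) and Mir145a (0.88) both passed. The number of genes called, 23, was 49 with no filter on low counts and 220 with no minimum fold. Having 2 libraries leaves every SD imprecise, and a lone library has no spread.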
